A study of Drosophila melanogaster with 33 samples.

Results

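Autophagy and lysosome genes are followed here through the start of metamorphosis in the midgut of Drosophila melanogaster. Members were the genes whose symbol in the platform's probe table starts with Atg, Vps, Cts, Npc1 or Npc2, or equals ref(2)P, cathD or Gal, with at least 1 value at 6 or more stages. The rule found 60 genes among 9904 named genes with a value, and each had values at 10 or 11 of the 11 stages. Of these 58 were read by 1 probe, Atg7 by 2 and Atg16 by 3, and probes of a gene were averaged. The members comprised 21 genes of autophagosome formation (19 Atg genes, Vps15 and ref(2)P), 22 genes of vesicle traffic with the Vps prefix, 9 lysosomal hydrolase genes and 8 sterol transport genes. Atg8a, which codes for the main Atg8 protein of the fly autophagosome, was not analysed here.

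The study profiled midguts of the wild-type strain Canton S at 18 h and 4 h before puparium formation (BPF), at puparium formation (0 h) and at 2, 3, 4, 5, 6, 8, 10 and 12 h after it (APF), without any genetic change or treatment. Each stage had 3 two-colour arrays of independent samples, lettered a, b and c in the labels, and RNA had been amplified by in vitro transcription. On each array the stage sample (Cy5) was set against one reference (Cy3), a mixture of midgut RNA of 10 of these stages, all but 10 h APF. Values were read as log2 ratios of stage to reference, with the direction inferred and base 2 assumed. On that reading a difference of 1 is a 2-fold change. Any centring of the arrays is unknown, so 0 is only nominally the level of the mixture.

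Autophagy carries cytoplasm to the lysosome in a double-membraned vesicle, the autophagosome. The Atg1 kinase complex starts it, a lipid kinase complex holding Vps15, Atg6 and Atg14 marks the site, Atg9, Atg2 and Atg18 proteins supply membrane, and the E1-like Atg7 drives 2 conjugation reactions that attach Atg12 to Atg5 and Atg8 to lipid. Tethering complexes then join the autophagosome and late endosomes to lysosomes, ESCRT complexes sort membrane cargo inward, retromer and Golgi tethers return receptors, and cathepsins and glycosidases digest the content. Larval midgut removal at puparium formation in flies is triggered by the steroid hormone ecdysone and is known to need autophagy genes, while caspase activity is not required for it.

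The 33 arrays held 7006 to 13966 values each, and between 39 and 60 members had a value on an array. Arrays lettered a held fewer values (mean 8948.6) than those lettered b (11998.5) or c (12486.2). The fewest were on 6 h APF a (7006), 0 h a (7252) and 4 h BPF a (7254). These arrays also had the lowest limma array weights, 0.335, 0.424 and 0.358. Their stages enter most of the comparisons below. Over the 2249 probes measured on every array, arrays of the same stage correlated at 0.726 to 0.922, whereas 119 of 495 pairs from different stages correlated below -0.3. The direction of the ratios is not stated with the values and was inferred from the make-up of the reference: over 7257 probes the SD of the log2 of the mean ratio across pooled stages was 0.117 as stage over reference and 0.509 as reference over stage. Of 12 markers of the digestive enterocyte 11 were found. From 18 h BPF to 0 h 10 of 11 tested fell (90.9%, against 7.28% of all features), with a median change over the list of -3.04. A ratio to a mixture gives no absolute level, so no marker can be said to be absent. Between the same stages 4 of 7 visceral muscle markers fell (57.1%, against 7.28% of all features). Of 3 fat body markers tested Fbp1 rose (2.12 ± 0.61, SE) and Desat1 fell (-1.63 ± 0.35), against 9.98% of all features higher and 7.28% lower. Between 0 h and 6 h APF the haemocyte marker Col4a1 rose by 3.45 ± 0.58, 1 of 4 haemocyte markers tested (25%, against 13.4% of all features). Enterocyte markers fell in 6 of 11 cases from 0 h to 6 h APF as well (54.5%, against 11.3% of all features). Of 4 midgut progenitor markers tested, esg rose by 1.06 ± 0.30 from 18 h to 4 h BPF and by 0.95 ± 0.30 from 18 h BPF to 0 h. It changed by -0.73 ± 0.27 from 0 h to 6 h APF. In each of these steps 1 of 4 progenitor markers was called (25%), against 3.35% and 9.98% of all features higher and 11.3% lower. The progenitor list had a median change of -0.64 in that last step, with 3 of 4 lower at an unadjusted p under 0.05. Later, from 6 h to 12 h APF, 3 of 7 haemocyte markers tested (42.9%) and 1 of 4 progenitor markers (25%) fell, against 13.2% of all features. In the same step 3 of 11 enterocyte (27.3%) and 2 of 6 visceral muscle markers (33.3%) rose, against 8.48%. The part of such markers in the results below was not tested, and in whole midguts fewer cells of a type and less RNA per cell cannot be told apart.

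The members were higher around puparium formation than in the feeding larva. Medians of stage means cover members with 2 or more values at the stage, so their genes differ between stages. The members' median was -0.17 at 18 h BPF, 0.10 at 4 h BPF, 0.15 at 0 h and 0.24 at 2 h APF. It then fell back through 0.04 at 4 h APF to -0.13 at 6 h APF and -0.14 at 12 h APF. The median of all features stayed between -0.0021 and 0.09. Array medians over all probes moved in the same direction, with 0.118, 0.056 and 0.087 at 2 h APF and -0.029, -0.010 and -0.004 at 12 h APF. In limma's moderated F test over the 11 stages, with Benjamini-Hochberg adjustment over 6925 features and a threshold of 0.05, 32 of 45 members tested changed (71.1%), against 56.4% of all features. The other 15 members had too few values at some stage to be tested. Among the 45, the highest stage mean fell at 0 h in 11 genes and at 2 h APF in 11, or 24.4% each, against 11.4% and 15.1% of all features. The lowest stage mean was at 18 h BPF in 13 of them (28.9%, against 18.5% of all features) and at the stages from 0 h to 4 h APF in 0 of them, against 18.8% of all features. Ranges and spans of a gene's stage means cover stages with 2 or more values. All 6 ESCRT genes tested, all 5 sterol transport genes tested and all 4 hydrolase genes tested passed the F test. So did 12 of 17 autophagosome genes and 2 of 7 genes of retromer, the Golgi tether and related tethers.

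**Figure D1:**
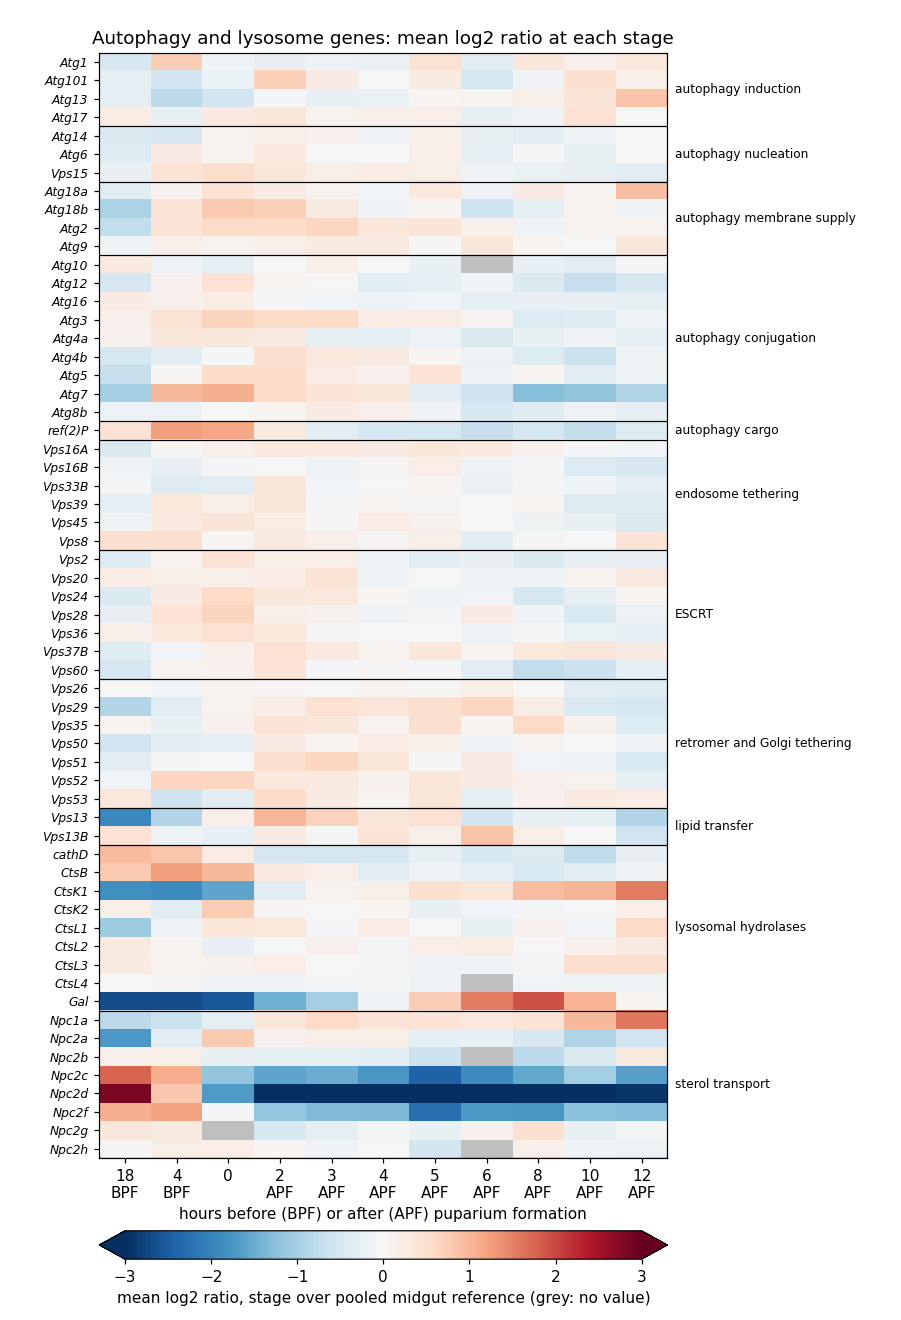
Mean log2 ratio of stage over pooled reference for the 60 members (rows, by role) at the 11 stages (columns), with colour limits at -3 and 3 and grey where a stage had no value. Atg5, Atg7, Atg18b and Vps24 turn from blue at 18 h BPF to their reddest at 0 h, while Gal, CtsK1 and Npc1a turn from blue to red and Npc2c, Npc2d and Npc2f from red to blue.

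Counts of calls between pairs of stages came from the same values. They leaned to rises from 18 h BPF to 0 h and to falls from 0 h to 6 h APF. Features with 2 or more values at both stages were tested with limma's moderated contrasts. From 18 h to 4 h BPF 9 of 55 members tested were higher (16.4%) and 1 was lower (1.82%), against 3.35% and 2.79% of all features. From 18 h BPF to 0 h 16 of 52 rose (30.8%) and 3 fell (5.77%), against 9.98% and 7.28%, and the median change was 0.31 for the members and 0.06 for all features. From 0 h to 6 h APF the order turned: 14 of 48 fell (29.2%) and 3 rose (6.25%), against 11.3% and 13.4% of all features, with median changes of -0.40 and 0.01. These 2 comparisons share the 0 h arrays, so they are not independent of each other. Without 4 h BPF replicate b the 9 became 5, and the single lower call to 4 h BPF was lost without 18 h BPF a or 4 h BPF a or c. The 14 lower calls became 7 without 6 h APF replicate c and 9 without 0 h replicate a.

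In the other steps the members' shares lay nearer to those of all features. Between 4 h BPF and 0 h limma called 0 of 51 members higher and 2 lower (3.92%), against 1.64% and 1.6% of all features, and at an unadjusted p under 0.05 it had 5 higher and 5 lower. Between 0 h and 2 h APF 3 of 52 rose (5.77%) and 2 fell (3.85%), against 3.62% and 2.63%. That background split was 331 features higher and 240 lower, and 240 higher and 296 lower after quantile normalization. From 6 h to 12 h APF 4 of 51 rose (7.84%) and 3 fell (5.88%), against 8.48% and 13.2%. Over the whole interval from 18 h BPF to 12 h APF 9 of 57 rose (15.8%) and 7 fell (12.3%), against 9.16% and 8.23% of all features. Leaving out 0 h replicate a or c left 1 of the 3 rises to 2 h APF, and leaving out 0 h b or 2 h APF b left 0 of the 2 falls. From 6 h to 12 h APF, 2 rises remained without 12 h APF b and 1 fall without 6 h APF a.

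**Figure D2:**
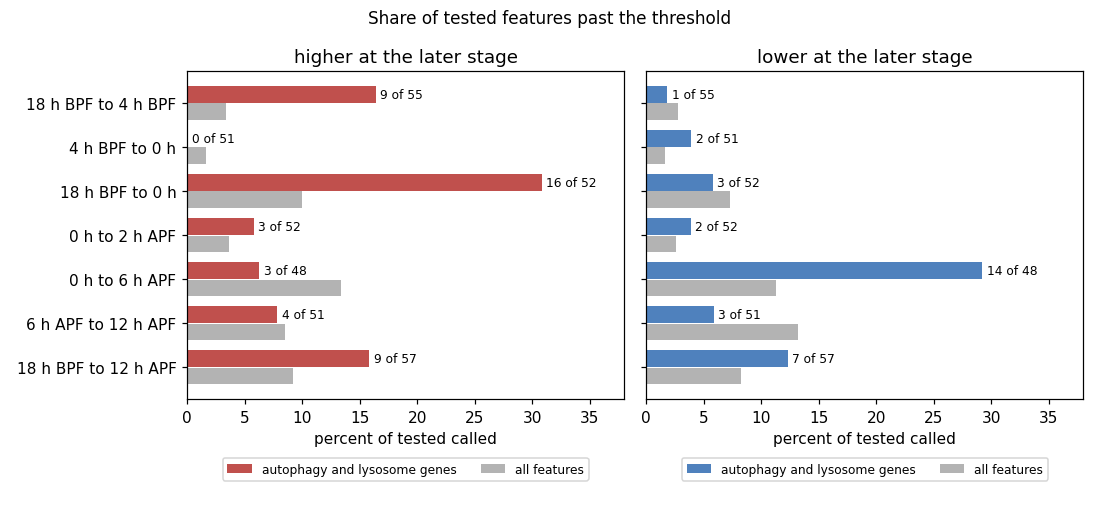
Percent of tested autophagy and lysosome genes (coloured bars, with the counts) and of all tested features (grey bars) called higher (left) or lower (right) at the later stage of 7 comparisons by limma at an adjusted p under 0.05. The longest coloured bars are 30.8% higher from 18 h BPF to 0 h and 29.2% lower from 0 h to 6 h APF.

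Among the genes that start autophagy, Atg1 was called from 18 h to 4 h BPF, where its mean was the highest of the 11 stages. Its ratios were -0.29, -0.51 and -0.64 on the 18 h BPF arrays, -0.04, 1.34 and 0.95 at 4 h BPF and -0.50, 0.27 and -0.08 at 0 h. The 4 h arrays thus lay above the 18 h arrays without overlap, though replicate a was far below b and c, and the 0 h arrays overlapped both. The rise to 4 h BPF was 1.23 ± 0.29 (SE, adjusted p = 0.00705), a 2.34-fold change, and the call was lost without 4 h BPF replicate b (0.93). Atg1 also had stage means above 0 later. Its arrays read 0.97, 0.40 and -0.01 at 5 h APF, 0.63, 0.62 and -0.25 at 8 h APF and 0.40, 0.23 and 0.31 at 12 h APF. These lay within the range of the 4 h BPF arrays except for 1 array at 8 h APF. Over the full course Atg1 passed the F test (adjusted p = 0.00915). Atg13, the partner of the kinase, moved at the other end. Its ratios were -0.04, -0.53 and -0.34 at 18 h BPF and 0.77, 0.89 and 0.88 at 12 h APF, a rise of 1.15 ± 0.32 (SE, adjusted p = 0.0104) with no overlap, lost without 18 h BPF replicate b (1.04). The other 2 genes of the complex did not pass: stage means ran from -0.57 to 0.72 for Atg101 (F test adjusted p = 0.105) and from -0.25 to 0.44 for Atg17 (0.72).

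In the lipid kinase complex that marks the autophagosome site, the regulatory subunit Vps15 rose and then fell. It read -0.17, -0.19 and -0.30 at 18 h BPF, 0.45, 0.53 and 0.28 at 4 h BPF, 0.56, 0.70 and 0.28 at 0 h and -0.13, 0.07 and -0.27 at 6 h APF. The arrays of 4 h BPF and 0 h all exceeded those of 18 h BPF and 6 h APF. The change was 0.64 ± 0.15 (SE, adjusted p = 0.00693) to 4 h BPF, 0.74 ± 0.15 (SE, adjusted p = 0.000549) to 0 h and -0.63 ± 0.15 (SE, adjusted p = 0.00225) from 0 h to 6 h APF. The first call was lost for Vps15 without 4 h BPF b (0.59). Atg14 passed the F test alone (adjusted p = 0.019), with its highest mean at 2 h APF (0.20) and its lowest at 4 h BPF (-0.48). Atg6, the Beclin-1 homologue, did not (0.15), with stage means between -0.38 and 0.30.

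Of the 4 genes of membrane supply, each had its lowest mean at 18 h BPF. Atg2, which transfers lipid to the growing membrane, read -0.72 and -0.76 on the 2 arrays with a value at 18 h BPF, 0.29, 0.56 and 0.33 at 4 h BPF and 0.39, 0.98 and 0.37 at 0 h. The later arrays were all above the earlier ones. The changes were 1.13 ± 0.22 (SE, adjusted p = 0.00152) to 4 h BPF and 1.31 ± 0.22 (SE, adjusted p = 6.89e-05) to 0 h. The mean of Atg2 was 0.64 ± 0.34 (SD, n = 3) at 3 h APF, 0.16 ± 0.23 (SD, n = 2) at 6 h APF and -0.11 ± 0.16 (SD, n = 3) at 8 h APF. At 12 h APF it was 0.84 ± 0.22 above 18 h BPF (adjusted p = 0.0072). Atg18b, a phosphoinositide-binding protein, read -0.23, -1.33 and -1.32 at 18 h BPF, -0.17, 0.74 and 0.67 at 4 h BPF, 0.26, 1.01 and 1.08 at 0 h and -1.52, -0.17 and -0.18 at 6 h APF. Its mean peaked at 0 h, and replicate a stood apart from b and c at all of these stages. In replicate a Atg18b was highest at 2 h APF (1.24) and rose by 0.06 from 18 h to 4 h BPF, against 2.07 in b and 1.98 in c. It rose by 1.37 ± 0.37 (SE, adjusted p = 0.0202) to 4 h BPF and by 1.74 ± 0.37 (SE, adjusted p = 0.000767) to 0 h, then changed by -1.41 ± 0.37 (SE, adjusted p = 0.00455) to 6 h APF. The call from 18 h to 4 h BPF was lost for Atg18b without 18 h BPF b or c or 4 h BPF b or c (1.18 to 1.24), and that from 0 h to 6 h APF for Atg18b without 6 h APF a (-0.96). Its relative Atg18a was measured mostly on b and c arrays. It read -0.58 and -0.09 on the 2 arrays with a value at 18 h BPF, -0.08 and -0.19 on the 2 arrays with a value at 6 h APF and 1.10 and 0.70 on the 2 arrays with a value at 12 h APF, which was the highest stage. The rise was 1.03 ± 0.26 (SE, adjusted p = 0.00772) from 6 h and 1.23 ± 0.26 (SE, adjusted p = 0.00212) from 18 h BPF. The first was lost for Atg18a without 6 h APF c or 12 h APF b (0.83 to 0.98). The stage means of Atg9, the membrane protein of the seeding vesicles, ran from -0.14 to 0.34 (F test adjusted p = 0.658).

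The conjugation step held the largest change of any autophagosome gene, in Atg7. Its ratios were -0.62, -1.19 and -1.18 at 18 h BPF, 0.88 and 1.07 on the 2 arrays with a value at 4 h BPF, 1.10 and 1.02 on the 2 arrays with a value at 0 h, -0.67 and -0.59 on the 2 arrays with a value at 6 h APF and -1.12, -1.52 and -1.22 at 8 h APF. No array of 4 h BPF or 0 h overlapped any array of the other 3 stages. Atg7 rose by 1.97 ± 0.22 (SE, adjusted p = 4.47e-06) to 4 h BPF, a 3.93-fold change, and stood 2.06 ± 0.22 (SE, adjusted p = 4.07e-07) above 18 h BPF at 0 h. It then changed by -1.69 ± 0.24 (SE, adjusted p = 1.28e-05) to 6 h APF, a 3.22-fold fall, and reached its lowest mean of -1.29 ± 0.21 (SD, n = 3) at 8 h APF. At 12 h APF it was back at -0.91, against -0.997 at 18 h BPF (change 0.08 ± 0.20, adjusted p = 0.842, not called).

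Several partners of Atg7 were also called. Atg5, the acceptor of Atg12, read -0.72, -0.84 and -0.51 at 18 h BPF, -0.14 and 0.22 on the 2 arrays with a value at 4 h BPF and 0.47 and 0.68 on the 2 arrays with a value at 0 h. Its arrays climbed from stage to stage without overlap, by 0.74 ± 0.18 (SE, adjusted p = 0.0117) to 4 h BPF and by 1.27 ± 0.18 (SE, adjusted p = 9.57e-06) to 0 h. At 6 h APF it had 1 value (-0.18) and was not tested there. At 12 h APF it remained 0.55 ± 0.16 above 18 h BPF (adjusted p = 0.0176). Atg12 itself rose from -0.59, -0.82 and -0.10 at 18 h BPF to 0.68, 0.41 and 0.20 at 0 h, a change of 0.93 ± 0.24 (SE, adjusted p = 0.00541), and had its lowest mean at 10 h APF (-0.69). Atg3, the E2-like enzyme for Atg8, was highest at 0 h with 0.85, 0.54 and 0.62 and read 0.31, -0.03 and -0.06 at 6 h APF, a change of -0.60 ± 0.20 (SE, adjusted p = 0.029). Atg16, the partner of the Atg12-Atg5 conjugate, changed by -0.52 ± 0.18 over the same step and by -0.54 ± 0.18 from 18 h BPF to 12 h APF. Single arrays decided several of these calls. From 18 h to 4 h BPF the call was lost for Atg5 without 18 h BPF b or 4 h BPF c (0.56 to 0.66), and from 18 h BPF to 12 h APF for Atg5 without 18 h BPF a or b or 12 h APF b or c (0.43 to 0.53) and Atg16 without 18 h BPF a or 12 h APF a or b (-0.53 to -0.29). From 0 h to 6 h APF it was lost for Atg3 without 0 h a or c or 6 h APF b or c (-0.62 to -0.51) and Atg16 without 0 h b or c or 6 h APF a or c (-0.48 to -0.44).

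Of the proteases that process Atg8, Atg4b passed the F test (adjusted p = 0.00048), being highest at 2 h APF (0.90, 0.06 and 0.50) and lowest at 10 h APF (-0.42, -0.89 and -0.61), and Atg4a did not (0.173). The difference between them was not tested. Atg8b, the Atg8 gene measured here, showed no called change. At 6 h APF it had a value on replicate b alone (-0.475), so neither the F test nor the comparisons with that stage covered it. It read -0.22, -0.09 and -0.20 at 18 h BPF, 0.16, -0.22 and 0.11 at 0 h and -0.15, -0.47 and -0.14 at 12 h APF, and its stage means spanned 0.61. Atg10, the E2-like enzyme for Atg12, ranged from -0.31 to 0.29 over 10 stages with no call.

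The cargo receptor ref(2)P, the fly p62, was highest at 4 h BPF and 0 h. It read 0.56, 0.27 and 0.49 at 18 h BPF, 1.35, 1.37 and 0.97 at 4 h BPF, 1.10, 1.32 and 1.04 at 0 h, 0.48, -0.10 and 0.41 at 2 h APF and -0.90, -0.55 and -0.65 at 6 h APF. All arrays of 4 h BPF and 0 h exceeded every array of the other 3 stages. It rose by 0.79 ± 0.22 (SE, adjusted p = 0.0295) to 4 h BPF and its further change to 0 h did not pass (-0.07 ± 0.22, adjusted p = 0.995). Between 0 h and 2 h APF it changed by -0.89 ± 0.22 (SE, adjusted p = 0.0121), and by 6 h APF by -1.86 ± 0.22 (SE, adjusted p = 2.35e-07), a 3.62-fold fall. At 12 h APF it lay -0.85 ± 0.22 from its 18 h BPF level (adjusted p = 0.00645), so it ended below where it began. Calls that depended on single arrays were those from 18 h to 4 h BPF, ref(2)P without 18 h BPF b or c or 4 h BPF a or b (0.71 to 0.82), from 18 h BPF to 0 h, ref(2)P without 18 h BPF b or 0 h b (0.63 to 0.64), and from 0 h to 2 h APF, ref(2)P without 0 h b or 2 h APF b (-0.81 to -0.71).

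**Figure D3:**
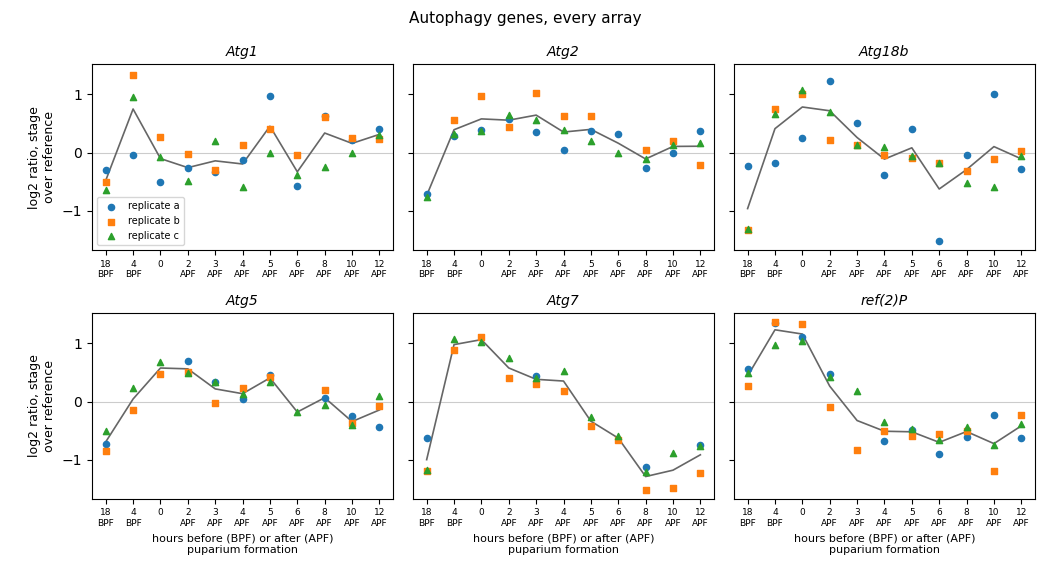
Log2 ratio of stage over pooled reference on every array (circles, squares and triangles for replicates a, b and c) for 6 autophagosome genes, with the line joining stage means. All 6 lie higher at 4 h BPF than at 18 h BPF; Atg7 and ref(2)P drop below 0 by 6 h APF, while Atg2 stays near or above 0.

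Among the tethering genes that bring vesicles to late endosomes and lysosomes, changes were small. Vps16A, a core subunit of the HOPS complex, read -0.25, -0.62 and -0.41 at 18 h BPF and 0.14, 0.07 and 0.23 at 0 h. The arrays did not overlap, and the rise of 0.58 ± 0.16 (SE, adjusted p = 0.00999) was lost for Vps16A without 18 h BPF b (0.48). Vps16B, the partner of Vps33B, passed the F test alone (adjusted p = 0.0133), with means from 0.20 at 5 h APF to -0.47 at 12 h APF. Vps8, a subunit of the early endosome tether CORVET, read -0.82, -0.03 and -0.19 at 6 h APF and 0.74 and 0.04 on the 2 arrays with a value at 12 h APF. Its rise of 0.74 ± 0.24 (SE, adjusted p = 0.0324) rested on these, and the call was lost for Vps8 without 6 h APF a or 12 h APF b (0.39 to 0.50). It was also lost with the replicate letter as a block and under quantile normalization. The remaining 3 genes, Vps33B, Vps39 and Vps45, had no call in any test, and their stage means spanned 0.75, 0.78 and 0.82.

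ESCRT complexes bud membrane into endosomes and close it, and several of their genes were higher at 0 h than at 18 h BPF or 6 h APF. Of 7 members tested, 3 rose (42.9%, against 9.98% of all features) and 0 fell (against 7.28%) from 18 h BPF to 0 h, with a median change of 0.63. From 0 h to 6 h APF 3 fell (42.9%, against 11.3%) and 0 rose (against 13.4%), with a median of -0.45. Vps24, a subunit of the ESCRT-III filament, read -0.60, -0.23 and -0.46 at 18 h BPF, 0.68, -0.08 and 0.14 at 4 h BPF, 0.77, 0.43 and 0.57 at 0 h and 0.10, -0.14 and -0.21 at 6 h APF. The 0 h arrays exceeded those of 18 h BPF and 6 h APF throughout. The changes were 0.67 ± 0.20 (SE, adjusted p = 0.0437) to 4 h BPF, 1.02 ± 0.20 (SE, adjusted p = 0.000435) to 0 h and -0.67 ± 0.20 (SE, adjusted p = 0.0144) from 0 h to 6 h APF. Vps2, another ESCRT-III subunit, read -0.30 and -0.45 on the 2 arrays with a value at 18 h BPF and 0.74, 0.22 and 0.33 at 0 h. It rose by 0.81 ± 0.23 (SE, adjusted p = 0.0107) and then changed by -0.66 ± 0.20 (SE, adjusted p = 0.0152). Vps28 of ESCRT-I read 0.04, -0.46 and -0.31 at 18 h BPF and 1.09 and 0.23 on the 2 arrays with a value at 0 h, a rise of 0.90 ± 0.30 (SE, adjusted p = 0.0341) with wide spread between its arrays. Vps36 of ESCRT-II changed by -0.63 ± 0.19 from 0 h to 6 h APF, and Vps37B of ESCRT-I by 0.60 ± 0.20 from 18 h BPF to 12 h APF.

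Vps60, related to ESCRT-III, passed the F test (adjusted p = 0.00236) with its highest mean at 2 h APF (0.42) and its lowest at 8 h APF (-0.73), and Vps20 was measured on 22 arrays with means between -0.13 and 0.28 and no call. Of the 8 ESCRT calls 7 were lost when some array was left out: from 18 h to 4 h BPF for Vps24 without 18 h BPF a or c or 4 h BPF a or c (0.46 to 0.73), and from 18 h BPF to 0 h for Vps2 without 18 h BPF c or 0 h a (0.66 to 0.73) and Vps28 without 18 h BPF b or c or 0 h a (0.47 to 0.87). From 0 h to 6 h APF they were lost for Vps2 without 0 h a or 6 h APF c (-0.60 to -0.51), Vps24 without 0 h a or 6 h APF c (-0.61 to -0.58) and Vps36 without 0 h c (-0.56), and from 18 h BPF to 12 h APF for Vps37B without 18 h BPF a or 12 h APF b or c (0.46 to 0.56). The rise of Vps24 to 0 h kept its call without any single array.

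In retromer, which returns receptors from endosomes, Vps29 changed and the other 2 subunits had no call. It read -0.77, -0.98 and -0.91 at 18 h BPF, 0.15, 0.12 and 0.07 at 0 h, 0.95 and 0.32 on the 2 arrays with a value at 6 h APF and -0.36, -0.91 and -0.22 at 12 h APF. The 3 arrays of 18 h BPF lay below all arrays of 0 h and 6 h APF. The rise to 0 h was 0.998 ± 0.25 (SE, adjusted p = 0.00391), and the fall from 6 h to 12 h APF was -1.13 ± 0.28 (SE, adjusted p = 0.00335). Its highest mean came at 6 h APF. Vps26 and Vps35 had F test adjusted p of 0.43 and 0.272; whether they differ from Vps29 was not tested. Among the 4 genes of Golgi and related tethers, Vps51 was highest at 3 h APF with 0.45, 0.88 and 0.60. It was lowest at 12 h APF with -0.35, -0.47 and -0.53, and it changed by -0.70 ± 0.22 (SE, adjusted p = 0.023) from 6 h to 12 h APF. Vps52 rose by 0.74 ± 0.24 (SE, adjusted p = 0.038) from 18 h BPF to 0 h. The calls were lost from 6 h to 12 h APF for Vps29 without 6 h APF a (-0.82) and Vps51 without 6 h APF a or c or 12 h APF b or c (-0.74 to -0.66), and from 18 h BPF to 0 h for Vps52 without 18 h BPF a, b or c or 0 h a, b or c (0.68 to 0.77). Vps50 and Vps53 had no call, with F test adjusted p of 0.0506 and 0.319.

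The widest change among the traffic genes was in Vps13, a bridge-like protein that moves lipid between membranes. It read -2.38, -1.76 and -1.63 at 18 h BPF, -1.77, -0.40 and -0.48 at 4 h BPF, -1.12, 1.05 and 0.69 at 0 h, 1.67, 0.66 and 0.64 at 2 h APF and -1.20, -0.41 and -1.02 at 12 h APF. The 0 h arrays all exceeded those of 18 h BPF, with one of them more than 1 unit below the others. The change to 0 h was 2.13 ± 0.46 (SE, adjusted p = 0.000933), a 4.38-fold rise that kept its call without any single array, and from 18 h BPF to 2 h APF the stage means differed by 2.91. Vps13B was measured on 18 arrays and its means ranged from -0.61 to 0.39 over stages with 2 or more values, with no call.

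**Figure D4:**
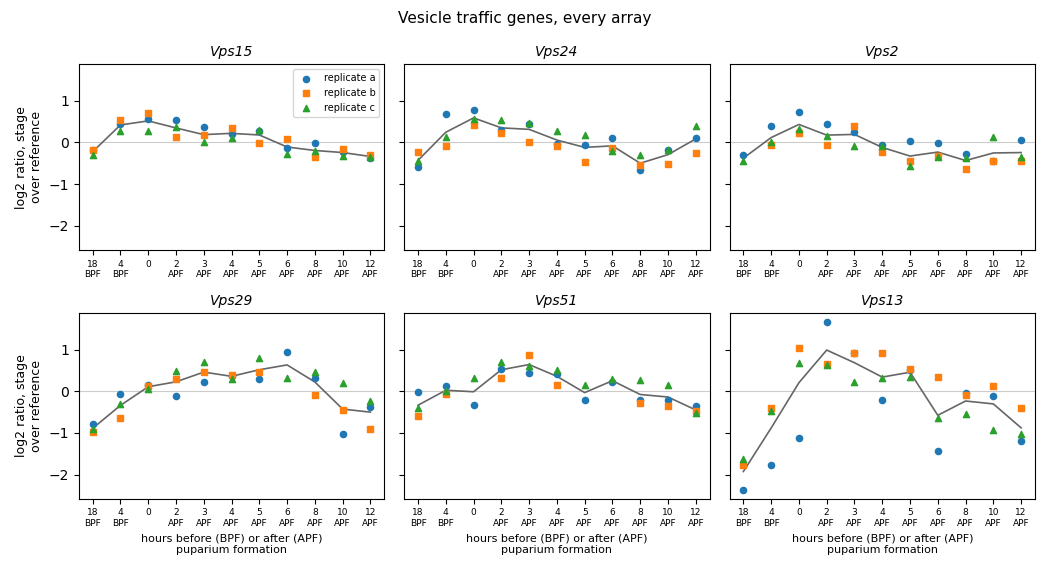
Log2 ratio of stage over pooled reference on every array (symbols for replicates a, b and c, line through stage means) for 6 genes of lipid kinase, ESCRT, retromer, Golgi tethering and lipid transfer complexes. Vps15, Vps24 and Vps2 peak at 0 h, Vps51 at 3 h APF and Vps29 at 6 h APF, and Vps13 lies lowest at 18 h BPF.

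Lysosomal hydrolases did not follow a common course: 2 rose late and 2 fell. Gal, a beta-galactosidase, read -3.08, -2.70 and -2.23 at 18 h BPF, -2.83, -2.28 and -2.56 at 0 h, -1.91, -1.25 and -1.22 at 2 h APF, 1.57 and 1.53 on the 2 arrays with a value at 6 h APF, 1.88, 1.75 and 2.06 at 8 h APF and -0.14, -0.27 and 0.66 at 12 h APF. It had no called change up to 0 h. Its stage means then increased to 8 h APF and came down again. The change was 1.09 ± 0.32 (SE, adjusted p = 0.0367) from 0 h to 2 h APF and 4.10 ± 0.36 (SE, adjusted p = 8.48e-10) from 0 h to 6 h APF, a 17.2-fold rise. From 6 h to 12 h APF it changed by -1.47 ± 0.36 (SE, adjusted p = 0.00353), which left it 2.75 ± 0.32 above 18 h BPF (adjusted p = 1.69e-07). The call from 0 h to 2 h APF was lost for Gal without 0 h a or c or 2 h APF b or c (0.96 to 1.09). The other 3 calls held without any single array.

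CtsK1, a cysteine protease, was highest at the last stage. It read -1.62, -2.15 and -1.75 at 18 h BPF, -1.83, -1.29 and -1.63 at 0 h, -0.48, -0.28 and -0.21 at 2 h APF, 0.52 and 0.22 on the 2 arrays with a value at 6 h APF and 1.64, 1.18 and 1.82 at 12 h APF. The 0 h arrays overlapped those of 18 h BPF and lay below all later ones. Its changes were 1.26 ± 0.23 (SE, adjusted p = 0.000591) from 0 h to 2 h APF, 1.96 ± 0.25 (SE, adjusted p = 8.45e-07) to 6 h APF and 1.18 ± 0.25 (SE, adjusted p = 0.00116) from 6 h to 12 h APF. From 18 h BPF to 12 h APF it rose by 3.39 ± 0.23 (SE, adjusted p = 6.37e-12), a 10.5-fold change. The changes to 2 h APF and from 6 h APF were not called after quantile normalization.

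CtsB and cathD, the cathepsin B and cathepsin D genes, ran the other way. CtsB read 1.27, 0.71 and 0.39 at 18 h BPF, 1.59, 1.005 and 1.07 at 4 h BPF, 1.29, 0.85 and 0.77 at 0 h and -0.03, -0.07 and -0.61 at 6 h APF. All arrays up to 0 h lay above those of 6 h APF, and the change from 0 h was -1.21 ± 0.23 (SE, adjusted p = 0.000149). Over 18 h BPF to 12 h APF it changed by -0.90 ± 0.23 (SE, adjusted p = 0.00446), a call lost for CtsB without 18 h BPF a (-0.66). The aspartic protease cathD read 1.69, 0.49 and 0.69 at 18 h BPF, 0.56, 0.87 and 1.05 at 4 h BPF, 0.25, 0.34 and 0.06 at 0 h, -0.80, -0.10 and -0.55 at 6 h APF and -0.17, -0.38 and -0.17 at 12 h APF. Its arrays were highest in the larva, and those of 0 h lay between the larval and the later ones. It changed by -0.74 ± 0.25 (SE, adjusted p = 0.0352) to 0 h, -0.70 ± 0.25 (SE, adjusted p = 0.0359) from 0 h to 6 h APF and -1.20 ± 0.25 (SE, adjusted p = 0.000567) over the whole interval. The calls to 0 h, for cathD without 18 h BPF a or 0 h a, b or c (-0.80 to -0.38), and to 6 h APF, for cathD without 0 h b or a or 6 h APF a or c (-0.69 to -0.55), depended on single arrays, while that to 12 h APF did not. The other 5 cathepsin genes lacked 2 values at some stage. Of these CtsL1, the cathepsin L gene, read -1.07 on the 1 array with a value at 18 h BPF and 0.54 and 0.60 on the 2 arrays with a value at 12 h APF. CtsL1 was not tested against 18 h BPF and had no call in the other comparisons. CtsK2, CtsL2, CtsL3 and CtsL4 also had no call. Their stage means spanned 0.52, 0.30, 0.61 and 0.19 over stages with 2 or more values.

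Sterol leaves the lysosome through the lumenal protein Npc2 and the membrane transporter Npc1, and fly Npc1a and Npc2a are known to act in sterol supply for ecdysone synthesis. Npc1a read -0.86, -0.79 and -0.71 at 18 h BPF, -0.37, -0.05 and -0.38 at 0 h, 0.43, 0.55 and 0.03 at 2 h APF, 0.41, 0.43 and 0.13 at 6 h APF and 1.42, 1.65 and 1.68 at 12 h APF. It stepped up around puparium formation, stayed level to 8 h APF and rose again, with no overlap between 18 h BPF, 6 h APF and 12 h APF. The changes were 0.52 ± 0.16 (SE, adjusted p = 0.0227) from 18 h BPF to 0 h, 0.60 ± 0.16 (SE, adjusted p = 0.0208) from 0 h to 2 h APF, 0.59 ± 0.16 (SE, adjusted p = 0.00759) from 0 h to 6 h APF and 1.26 ± 0.16 (SE, adjusted p = 1.45e-06) from 6 h to 12 h APF. From 18 h BPF to 12 h APF it rose by 2.37 ± 0.16 (SE, adjusted p = 6.19e-12), a 5.19-fold change. The steps to 0 h, for Npc1a without 18 h BPF a or b or 0 h b (0.41 to 0.52), and to 2 h APF, for Npc1a without 0 h a or c or 2 h APF a or b (0.50 to 0.56), lost their calls when arrays were left out.

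Npc2a instead rose to 0 h and then declined. It read -1.79, -2.18 and -1.22 at 18 h BPF, 0.20 and -0.87 on the 2 arrays with a value at 4 h BPF, 1.04, 0.33 and 0.96 at 0 h, 0.51, -0.24 and -0.92 at 6 h APF and -0.59, -0.32 and -0.88 at 12 h APF. The arrays of 18 h BPF lay below all others of these stages, and those of 6 h APF were scattered and overlapped 0 h. The rise was 1.40 ± 0.32 (SE, adjusted p = 0.00567) to 4 h BPF and 2.51 ± 0.28 (SE, adjusted p = 2.15e-07) to 0 h, a 5.68-fold change. It changed by -0.996 ± 0.28 (SE, adjusted p = 0.00987) from 0 h to 6 h APF and stood 1.13 ± 0.28 above 18 h BPF at 12 h APF (adjusted p = 0.00481). Without single arrays the call to 4 h BPF was lost for Npc2a without 4 h BPF a (0.86) and that to 6 h APF for Npc2a without 0 h a or 6 h APF c (-0.86 to -0.65).

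Npc2c, Npc2d and Npc2f fell, and Npc2d fell further than any other member. It read 3.48, 2.44 and 2.54 at 18 h BPF, 0.83, 1.15 and 0.42 at 4 h BPF, -1.56, -1.38 and -2.19 at 0 h, -4.21, -3.66 and -2.70 at 2 h APF and -4.15, -2.33 and -2.30 at 12 h APF. Each of the first 4 stages lay wholly below the one before. The changes were -2.02 ± 0.55 (SE, adjusted p = 0.0234) from 18 h to 4 h BPF, -2.51 ± 0.55 (SE, adjusted p = 0.00676) to 0 h and -1.81 ± 0.55 (SE, adjusted p = 0.0454) to 2 h APF. Over 18 h BPF to 12 h APF it changed by -5.75 ± 0.55 (SE, adjusted p = 3.69e-09), a 53.7-fold fall, and its lowest mean was -4.70 ± 0.49 (SD, n = 3) at 8 h APF. Its arrays were farthest apart at 10 h APF, with -4.94, -3.67 and -2.27. Calls were lost from 18 h to 4 h BPF for Npc2d without 18 h BPF a or 4 h BPF a or c (-2.04 to -1.69), from 0 h to 2 h APF for Npc2d without 0 h b or a or 2 h APF a or b (-1.74 to -1.47), and from 0 h to 6 h APF, where the change was -1.80 ± 0.55, for Npc2d without 0 h b or 6 h APF a or c (-1.63 to -1.47).

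Npc2c, which lies next to Npc2d on chromosome arm 3R in the RefSeq gene order, read 2.15, 2.10 and 0.998 at 18 h BPF, 1.74, 0.58 and 0.96 at 4 h BPF, -0.87, -0.91 and -1.75 at 0 h and -1.49, -0.96 and -2.45 at 12 h APF. Its larval arrays were all above 0 and all later ones below. It changed by -2.27 ± 0.45 (SE, adjusted p = 0.00291) from 4 h BPF to 0 h, by -2.93 ± 0.45 (SE, adjusted p = 2.02e-05) from 18 h BPF to 0 h and by -3.38 ± 0.45 (SE, adjusted p = 1.74e-06) from 18 h BPF to 12 h APF. Npc2f read 1.71, 0.86 and 0.66 at 18 h BPF, 0.25 and -0.36 on the 2 arrays with a value at 0 h and -1.87, -1.22 and -2.10 at 6 h APF. The change was -1.67 ± 0.45 (SE, adjusted p = 0.00594) from 0 h to 6 h APF and -2.38 ± 0.40 (SE, adjusted p = 4.7e-05) over the whole interval. The call to 6 h APF was lost for Npc2f without 0 h a (-1.36). The neighbours Npc2g and Npc2h, also on 3R, had no call and stage means that spanned 0.81 and 0.75, and Npc2b, on the same arm, spanned 1.07 with no call. Probe sequences were not used here, so signal shared between these related genes was not tested.

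**Figure D5:**
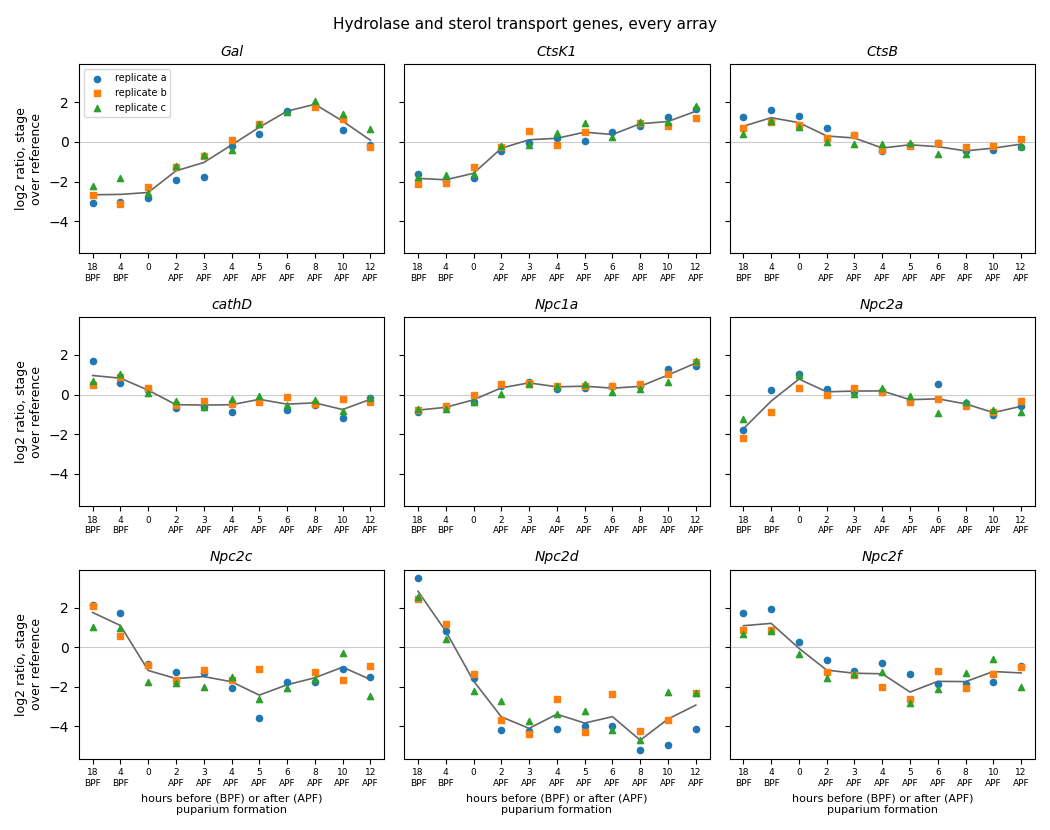
Log2 ratio of stage over pooled reference on every array (symbols for replicates a, b and c, line through stage means) for 4 hydrolase and 5 sterol transport genes on a shared axis. Gal, CtsK1 and Npc1a climb, with Gal turning down after 8 h APF; CtsB, cathD, Npc2c, Npc2d and Npc2f descend, Npc2d down to a mean of -4.70 at 8 h APF; and Npc2a peaks at 0 h.

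Genes of the same pathways outside the rule were read from lists. ESCRT partners and membrane fusion genes without the Vps prefix (19 of 28 found) had 6 of 17 tested higher (35.3%, against 9.98% of all features) and 0 lower (against 7.28%) from 18 h BPF to 0 h, with a median change of 0.47. Of 17 tested from 0 h to 6 h APF, 3 fell (17.6%, against 11.3%) and 0 rose (against 13.4%), with a median of -0.27. The largest rises to 0 h were Hrs at 1.34 ± 0.19, CG8155 at 0.97 ± 0.20 and TSG101 at 0.93 ± 0.21. Hrs with Stam forms ESCRT-0, which collects ubiquitinated cargo for the ESCRT-I protein TSG101. The falls from 0 h to 6 h APF were Stam at -2.17 ± 0.31, Hrs at -1.92 ± 0.19 and TSG101 at -0.81 ± 0.21. From 18 h to 4 h BPF 3 of 19 rose (15.8%, against 3.35%), Hrs, shrb and TSG101. Of 19 tested from 6 h to 12 h APF, 1 rose (5.26%, against 8.48%) and 2 fell (10.5%, against 13.2%): spin, a lysosomal efflux permease, rose by 1.31 ± 0.42 while Vamp7 and Ykt6 fell.

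Further hydrolases and lysosomal proteins (30 of 39 found) moved in both directions. The list also held Gnpat, an entry that is not a hydrolase. From 18 h to 4 h BPF 3 of 27 tested rose (11.1%, against 3.35% of all features) and 5 fell (18.5%, against 2.79%). Of 25 tested from 18 h BPF to 0 h, 7 rose (28%, against 9.98% of all features) and 6 fell (24%, against 7.28%). Of 23 tested from 0 h to 6 h APF, 3 rose (13%, against 13.4%) and 7 fell (30.4%, against 11.3%). Of 27 tested from 6 h to 12 h APF, 7 rose (25.9%, against 8.48%) and 2 fell (7.41%, against 13.2%). To 0 h the largest rises were CREG at 2.01 ± 0.26, GILT2 at 1.24 ± 0.28 and LManI at 1.04 ± 0.28, and the largest falls LManV at -4.28 ± 0.43, LManVI at -3.97 ± 0.48 and Lip4 at -2.40 ± 0.37. The LMan genes code for alpha-mannosidases and Lip4 for a lipase. From 6 h to 12 h APF the largest rise was CG7997 at 7.93 ± 0.60. Over 18 h BPF to 12 h APF 8 of 28 rose (28.6%, against 9.16%) and 7 fell (25%, against 8.23%), with Cln3 rising by 3.63 ± 0.26.

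Upstream control of autophagy by insulin, TOR and AMPK was read from 18 of 29 genes found. Of 16 tested from 18 h BPF to 0 h, 2 rose (12.5%, against 9.98% of all features), chico at 0.96 ± 0.27 and SNF4Agamma at 0.91 ± 0.22, and 0 fell (against 7.28%). They code for the insulin receptor substrate and the AMPK gamma subunit. Between 0 h and 2 h APF 2 of 16 rose (12.5%, against 3.62%), slif at 1.61 ± 0.48 and Sesn at 1.38 ± 0.32, an amino acid transporter and a sestrin. Limma called 0 of 15 from 0 h to 6 h APF, against 13.4% of all features higher and 11.3% lower, with 1 lower and 0 higher at an unadjusted p under 0.05. Of 15 tested from 6 h to 12 h APF, 2 rose (13.3%, against 8.48%), chico at 0.76 ± 0.27 and AMPKalpha at 0.65 ± 0.21. Over 18 h BPF to 12 h APF 4 of 17 rose (23.5%, against 9.16%), chico at 2.01 ± 0.27, SNF4Agamma at 1.30 ± 0.22, Sesn at 1.27 ± 0.29 and S6k at 0.94 ± 0.24, and 0 fell (against 8.23%). In the remaining steps 1 of 18 rose from 18 h to 4 h BPF (5.56%, against 3.35%) and 1 of 16 from 4 h BPF to 0 h (6.25%, against 1.64%).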

How the data were processed

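Midgut RNA of 11 stages was measured on 33 two-colour arrays. The authors deposited 1 log2 ratio per probe and array, and their scale, direction, background correction, normalization and centring are not stated. Per the labels, the stage sample carried Cy5 and the reference Cy3. Stage over reference was inferred from the reference: averaged over its 10 stages, linear ratios should be near 1 constant for every probe. Their log2 SD over 7257 probes was 0.117, against 0.509 reversed, and 0.204 or 0.792 with natural logarithms. This SD shrinks as the base nears 1, so it cannot settle the base, and base 2 was assumed. Array medians ran from -0.029 to 0.118, and any centring stays unknown, so values were used as deposited.

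Probes were named through the platform annotation with names and neighbours from RefSeq's genes of assembly Release 6 plus ISO1 MT. Of 14064 probes with values, 10827 named 1 gene, 227 several (none of these used; 2 named CtsF with another gene) and 3010 none. All 60 members matched RefSeq. Sequences and coordinates are not given, since no table of sequences was used here. Probes of a gene were averaged, which gave 13141 features.

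One limma 3.58.1 model (statmod 1.5.0, R 4.3.3) covered all 33 arrays with a mean per stage. Features needed 2 values in each stage compared, and moderated contrasts and F tests were adjusted by Benjamini-Hochberg over all features tested, at a threshold of 0.05. The code was tested on simulated data. The samples are independent per the labels, which do not say how many animals each held. The number of arrays limits the precision. Alternatives were array centring, quantile normalization, other filters on missing values, the replicate letter as a block, no letter a arrays, single probes, array weights and leaving out each array in turn. Per-array values are given for up to 4 of the largest called members per direction and comparison and for Atg1, Atg5, Atg7, Atg8b, Atg18a, ref(2)P, cathD, Gal, Npc1a and Npc2a. The members and all gene lists were chosen with earlier results of these data known, so their direction is not independent support.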

Additional observations from a re-analysis of the deposited data

How the results depend on the processing

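No called change of a member reversed in any alternative run. Of 1018 alternative values of the 76 called changes, 860 kept the call and 158 lost it, and 32 changes kept it in every alternative that tested them. Leaving out single arrays ended 38 of the 76 calls, each named in the report. Without the arrays lettered a, which leaves 2 arrays a stage, 31 calls were lost. Quantile normalization ended 16: Vps24 and ref(2)P from 18 h to 4 h BPF; Npc1a, Vps28, Vps52 and cathD from 18 h BPF to 0 h; CtsK1 and Npc1a to 2 h APF; Atg16, Npc2d and cathD from 0 h to 6 h APF; CtsK1, Vps8 and Vps51 from 6 h to 12 h APF; and Vps37B and Atg16 to 12 h APF. Array weights ended 6, median centring 2, a minimum of 1 value per stage 2 and the letter block 1 (Vps8). Of 237 alternative counts, 194 stayed within 1.5 times the count reported. Restricted to features on all arrays, which holds 13 members, the F test called 13 of them. In that setting the higher and lower counts that moved were 5 higher from 18 h to 4 h BPF, 1 lower from 4 h BPF to 0 h, 7 higher from 18 h BPF to 0 h, 1 higher from 0 h to 2 h APF, 1 higher and 7 lower from 0 h to 6 h APF, 1 higher and 0 lower from 6 h to 12 h APF, and 3 higher and 3 lower from 18 h BPF to 12 h APF. Without letter a the counts were 5 higher and 0 lower from 18 h to 4 h BPF, 2 higher to 0 h, 10 higher from 18 h BPF to 0 h, 1 higher and 1 lower from 0 h to 2 h APF, 9 lower to 6 h APF, 1 lower from 6 h to 12 h APF and 4 lower to 12 h APF. From 4 h BPF to 0 h array weights gave 3 higher and 4 lower. From 0 h to 2 h APF quantile normalization gave 1 higher and 4 lower, and a minimum of 1 value per stage 1 lower. From 6 h to 12 h APF quantile normalization gave 2 higher. With single arrays left out the counts ran from 5 to 8 higher and 0 to 1 lower from 18 h to 4 h BPF, 0 to 1 higher from 4 h BPF to 0 h, 1 to 3 higher and 0 to 2 lower from 0 h to 2 h APF, 7 to 13 lower from 0 h to 6 h APF, and 2 to 4 higher and 1 to 4 lower from 6 h to 12 h APF. The causes of these moves were not tested. Some of the settings hold fewer features or arrays.

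The labels do not say whether a shared replicate letter marks a batch. The number codes that end the sample titles have lower closing digits on every a array than on any b or c array. What these codes mean is not stated. In deviations from stage means, 86 of 165 same-letter pairs correlated above 0.1, against 60 of 330 pairs of different letters. Deviations from stage means of arrays with the same letter had a median correlation of 0.107 and a lowest of -0.446, against a median of -0.057 for different letters, and 29 of 33 arrays correlated best with their own letter, a hint from the data and not from the design. With the letter as a block the F test called 35 members, 18 rose and 4 fell from 18 h BPF to 0 h, 14 fell from 0 h to 6 h APF, and 1 rose from 4 h BPF to 0 h. Intensities were not used here, so a limit set by dim spots was not tested.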

Other observations

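The 2 Atg7 probes and the 3 Atg16 probes were averaged per gene in the comparisons of the report. Their separate stage means are given here. The Atg7 probes had stage means of -1.08 and -1.06 at 18 h BPF, 0.91 and 1.21 at 0 h, and -1.18 and -1.36 at 8 h APF. The Atg16 probes lay at 0.37, 0.09 and 0.27 at 18 h BPF and at -0.28, -0.23 and -0.37 at 12 h APF.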
